A study of Rattus norvegicus with 8 samples.

Results

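The UDP-glucuronosyltransferases (UGTs) of rat liver were followed rat by rat on expression arrays of 8 livers. Every probe set whose annotated symbol starts with Ugt1 or Ugt2 was taken, which gave 11 of the 31042 probe sets of the table. Of these, 9 name 1 UGT2 gene, and 2 list 8 UGT1A genes each, among them Ugt1a1, and cannot be assigned to a single one. No probe set carries the symbol Ugt2b17, which RefSeq keeps as an older name of both Ugt2b15 and Ugt2b1. The family was chosen by the measured signals of these 8 arrays, namely the loss of Ugt2b in 1 control rat, so that loss is given as a description without a test. The other members were taken by symbol alone.

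Livers came from male Sprague-Dawley rats aged 7 weeks, 1 array per rat and 4 rats per diet. The L. brevis rats received, for 2 weeks, rodent chow (CRF-1) with 10 g cholesterol, 5 g cholic acid and 10 g of viable, freeze-dried Lactobacillus brevis per kg, a turnip isolate of this lactic acid species (strain 119-2). Control rats received the same chow with cholesterol and cholic acid but no bacteria. The series' design text states this control diet, although the source labels of the control arrays name the chow alone. The study asked how the strain affects cholesterol in the liver, and the rats on the arrays are part of groups of 11 per diet.

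UGTs sit in the membrane of the endoplasmic reticulum and join glucuronic acid, taken from UDP-glucuronic acid, to bilirubin, steroids, bile acids and drugs, which makes these water-soluble for export into bile and urine. The UGT1A enzymes come from 1 locus in which alternative first exons are spliced to shared downstream exons, and Ugt1a1 conjugates bilirubin. The UGT2B enzymes are encoded by separate, closely related genes that lie side by side and act largely on steroids and bile acids. Ugt2b, which RefSeq also lists as Ugt2b2, is known as the androsterone-conjugating enzyme of rat liver, and an inherited deletion of it is known from Wistar rats with low androsterone glucuronidation.

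Of the 11 UGT probe sets, 8 varied between the rats. The other 3 held 1 value on all 8 arrays, as did 24719 of all probe sets to within 0.01 log2. No difference could be read for the other UGT1A probe set (13.03), Ugt2b7 (6.80) or Ugt2b34l1 (7.00). The remaining 6323 probe sets, 20.4% of the table, are called varying below. Array medians over the whole table lay between 6.61 and 6.63. Most probe sets held 1 value on all arrays, so this closeness does not show how alike the arrays are. Precision is limited by having 4 arrays per diet. Alb, serum albumin, a hepatocyte transcript, lay between 14.26 and 14.31 in all 8, while another hepatocyte marker, Tat, tyrosine aminotransferase, lay between 8.13 and 10.17. Liver L. brevis 2 stood apart in carrying skeletal muscle transcripts, with Acta1, muscle actin, at 12.45 against 5.08 to 5.54 in the other 7.

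Both probe sets of Ugt2b lost their signal in 1 animal, control rat 4. At 1387825_at the signal was 13.75, 14.03, 13.41 and 13.16 in L. brevis rats 1 to 4, and 13.42, 13.55, 13.66 and 2.20 in control rats 1 to 4. The other 7 livers lay between 13.16 and 14.03, and this control liver lay 10.96 log2 units below the lowest of them. The other Ugt2b probe set, 1385247_at, read 11.09, 12.15, 10.41 and 10.25 in L. brevis rats 1 to 4, and 9.78, 11.07, 10.69 and 1.66 in control rats 1 to 4. Here the same control liver was 8.11 log2 units below the next lowest.

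These were the lowest values of the table: 1.66 and 2.20 ranked 1 and 2 from the bottom among 248336 values. On the array of control 4 the next lowest value was 4.33 and the 1st percentile 5.62, and on the other 7 arrays no value was under 3.70. The distance to the median of the other 7 rats, -11.36 and -9.03 log2 units, cannot be read as a measured fold. With the 1st percentile of that array taken as the lowest readable signal, a limit set after the values were seen, control 4 was 245-fold lower at 1387825_at and 33.7-fold lower at 1385247_at. The 1st percentile was 5.62 on every array, since most probe sets hold 1 value throughout, so this limit was not measured on the array of control 4 alone. A higher limit would give smaller folds: Umod, a kidney marker, read 6.27 on every array. In whole-liver RNA, fewer cells of a type and less RNA per cell cannot be told apart.

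**Figure D1:**
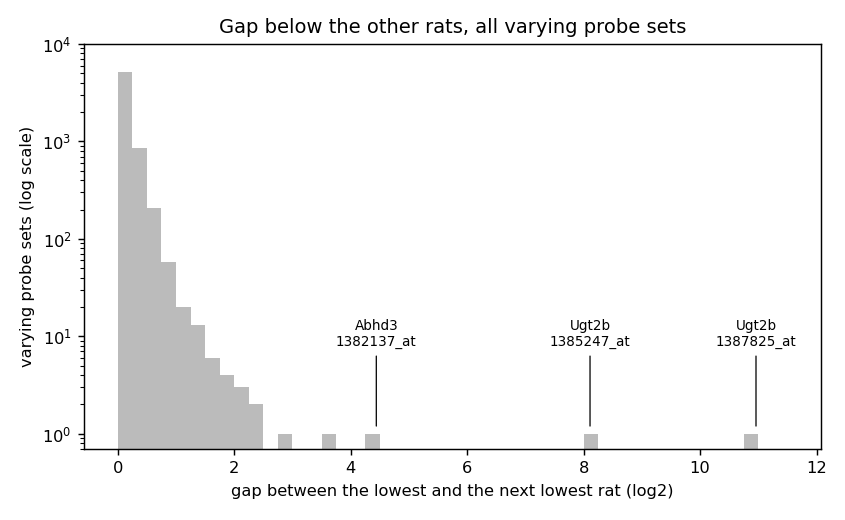
Gap between the lowest and the next lowest of the 8 rats (x axis, log2 units) for all 6323 varying probe sets, with the number of probe sets on a logarithmic y axis. The Ugt2b probe sets stand alone at 8.11 and 10.96, and the next gap is that of Abhd3 at 4.44.

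A fall of this size in 1 rat was rare in the series. Among the 6323 varying probe sets, 53 had 1 rat more than 1 log2 unit below all others and 10 had 1 rat more than 2 units below. Control 4 was that rat for 4 probe sets at the lower limit and for 2 at the higher one, the Ugt2b pair. The UGT probe set nearest to this pair in gap was Ugt2b1, with control 1 lying 1.34 log2 units below the next lowest rat. In control 4 the 7 varying hepatocyte markers averaged 0.07 log2 above their 8-rat means. Markers of other liver cells, 4 to 6 varying per list, deviated there on average by -0.31 (Kupffer cell), -0.04 (endothelium) and -0.18 (stellate cell), and 3 of the 5 Kupffer cell markers were lowest there. The part of such differences in the Ugt2b values was not tested. The share of all varying probe sets lowest in control 4 was not computed.

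The other varying UGT2 probe sets of the cluster did not share this loss in control 4. Ugt2b7 and Ugt2b34l1 held 1 value on all arrays and could not show one. In RefSeq gene order (assembly GRCr8, used for names and neighbours) Ugt2b is followed by Ugt2b15, Ugt2b37, Ugt2b35, Ugt2b7, Ugt2b7l1, Ugt2b1, Ugt2b10 and Ugt2b34l1, with pseudogenes and other loci among them. Ugt2b15, the nearest measured UGT gene on that side and whose human namesake conjugates androgens, read 11.59 in control 4, 0.08 log2 above the median of the other 7 rats. Ugt2b35 was 0.26 above that median in control 4, Ugt2b1 0.20 above it and Ugt2b10 0.35 above it. On the other side of Ugt2b, Ugt2a1, an enzyme known from olfactory epithelium, read 6.99 in control 4, 0.15 log2 below the median of the other 7. Its signal was low in all 8 rats, at most 7.31 against array medians of 6.61 to 6.63, so a loss could hardly show. Outside the cluster, 10 annotated genes were taken on each side, of which Sult1e1, Sult1b1 and Ythdc1 had varying probe sets. Sult1e1, the estrogen sulfotransferase, read 13.14 in control 4, the highest of the 8, against 10.85 to 13.08 in the other 7. Sult1b1, a cytosolic sulfotransferase, read 12.09 in control 4 against 12.10 to 12.81 in the other 7. Ythdc1, a nuclear reader of RNA methylation, read 9.31 in control 4, and the others spanned 8.86 to 9.62. Ugt2a1 and Sult1b1, on the same side of Ugt2b, were lowest in control 4, by 0.03 and 0.01 log2. Ugt2a3, Ugt2b37, Ugt2b7l1 and the pseudogene Ugt2b-ps1 next to Ugt2b had no probe set listed and were not analysed here. UGT2B genes are closely related, and the probe sequences, which would show how far a probe set takes up related transcripts, were not used here. Genotypes of the rats were not analysed here.

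**Figure D2:**
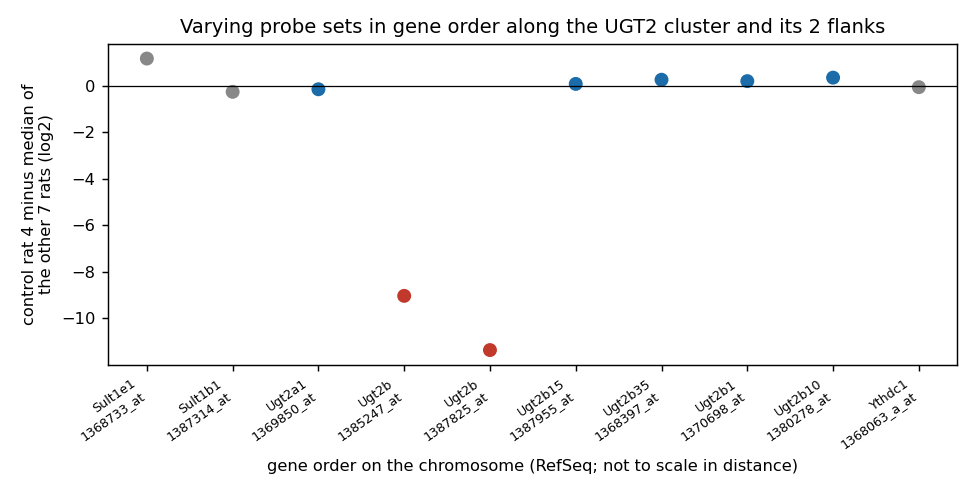
Signal of control rat 4 minus the median of the other 7 rats (y axis, log2) for the 10 varying probe sets in and beside the UGT2 cluster, in gene order on the x axis, with Ugt2b in red, other UGT2 genes in blue and flanking genes in grey. The Ugt2b probe sets lie at -9.03 and -11.36, and the other 8 lie between -0.26 and 1.17, the highest being Sult1e1.

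No other gene followed Ugt2b closely. Among 4875 varying probe sets with 1 symbol outside the UGT families, 0 had a Pearson r above 0.9 with 1387825_at over the 8 rats. The 10 most alike, led by Nupr1, a stress-induced chromatin protein (r = 0.887), Chchd2l3 (r = 0.852) and Hlcs, the enzyme that attaches biotin to carboxylases (r = 0.822), all had their lowest value in control 4. Their gaps below the next rat ran from 0.01 to 1.25 log2, the widest being that of Nupr1 (7.94, against 9.19 to 10.27 in the other 7). These r values rest on control 4: without it that of Nupr1 was 0.65, that of Chchd2l3 0.18 and that of Hlcs -0.26.

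With all 8 rats the diet difference of Ugt2b (L. brevis minus control, as throughout) was decided by that single animal. It was +2.88 log2 at 1387825_at (SE 2.55) and +2.68 at 1385247_at (SE 2.04). Without control 4 it was +0.05 (SE 0.21, adjusted p = 0.914, limma) and +0.46 (SE 0.53, adjusted p = 0.596), from means of 13.59 ± 0.38 in L. brevis livers (SD, n = 4) and 13.54 ± 0.12 in control livers 1 to 3 for 1387825_at. For 1385247_at these means were 10.98 ± 0.86 in L. brevis livers and 10.51 ± 0.67 in control livers 1 to 3. The highest value of both probe sets was that of L. brevis 2, the liver with muscle transcripts.

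**Figure D3:**
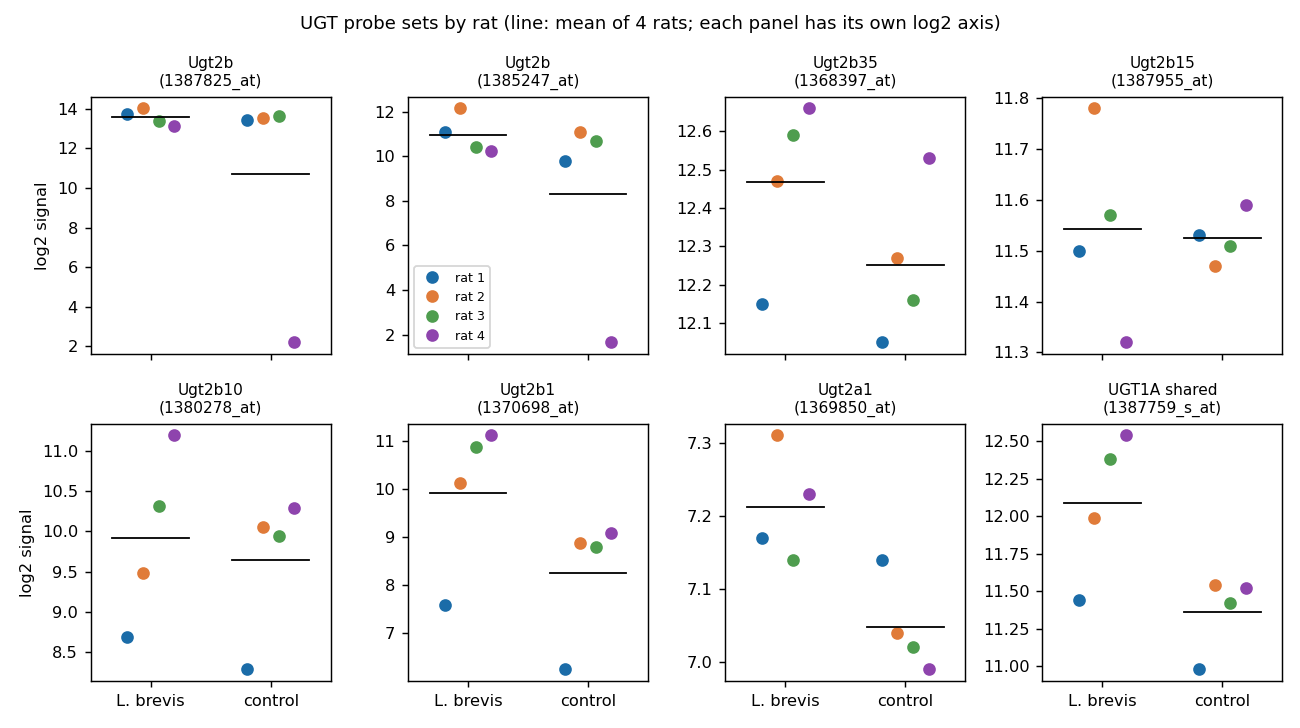
Log2 signal (y axis, a separate scale in each panel) of the 8 varying UGT probe sets in each rat, with L. brevis rats on the left and control rats on the right, coloured by rat number, and a line at the mean of 4. Control rat 4 is alone at the bottom for both Ugt2b probe sets (2.20 and 1.66), while rat 1 of each diet is lowest in its group for Ugt2b1, Ugt2b10, Ugt2b35 and the UGT1A probe set.

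The promoter windows of 4 UGT2B genes are shown because the array data split them. Ugt2b lost its signal in 1 rat, its neighbour Ugt2b15 kept its signal there, and Ugt2b1 and Ugt2b10 varied together between rats (r = 0.86). Without the 2 rats farthest from the median of Ugt2b1 that r was 0.61. The pattern of Ugt2b1 was not particular to these genes: many other probe sets shared it, and it moved with a measure of RNA quality, as given below. Each window is taken from RefSeq (GRCr8, plus strand) and runs from 250 bases before to 50 bases after the annotated start, at chr14:20985199-20985498 for Ugt2b, chr14:21122616-21122915 for Ugt2b15, chr14:21462591-21462890 for Ugt2b10 and chr14:21378632-21378931 for Ugt2b1. Capitals mark matches, on either strand, to the letters TTGNGCAA of the C/EBP factors, which act in liver.
Ugt2b: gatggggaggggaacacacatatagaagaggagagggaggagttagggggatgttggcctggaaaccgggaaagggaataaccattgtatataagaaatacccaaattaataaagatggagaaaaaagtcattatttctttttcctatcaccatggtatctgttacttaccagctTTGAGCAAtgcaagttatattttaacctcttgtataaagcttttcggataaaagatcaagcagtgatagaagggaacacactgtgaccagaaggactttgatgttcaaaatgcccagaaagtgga
Ugt2b15: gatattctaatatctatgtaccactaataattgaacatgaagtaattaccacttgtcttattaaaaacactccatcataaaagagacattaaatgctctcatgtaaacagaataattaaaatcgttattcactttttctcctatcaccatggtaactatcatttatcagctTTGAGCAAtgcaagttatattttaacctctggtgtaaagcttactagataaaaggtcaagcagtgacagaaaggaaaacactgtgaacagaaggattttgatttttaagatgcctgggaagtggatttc
Ugt2b10: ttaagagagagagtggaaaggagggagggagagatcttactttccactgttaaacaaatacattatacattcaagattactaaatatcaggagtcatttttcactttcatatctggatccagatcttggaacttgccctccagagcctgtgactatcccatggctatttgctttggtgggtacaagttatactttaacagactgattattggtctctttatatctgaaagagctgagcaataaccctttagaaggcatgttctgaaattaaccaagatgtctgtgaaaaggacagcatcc
Ugt2b1: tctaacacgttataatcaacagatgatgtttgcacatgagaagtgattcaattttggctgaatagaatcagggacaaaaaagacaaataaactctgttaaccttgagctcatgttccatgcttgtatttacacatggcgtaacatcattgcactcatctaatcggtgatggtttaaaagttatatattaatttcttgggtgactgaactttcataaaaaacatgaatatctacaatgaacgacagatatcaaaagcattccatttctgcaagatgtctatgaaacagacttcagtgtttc
The C/EBP letters were found in 5 of the 10 UGT2 promoter windows and in 2.72% of all 27457 windows of this length. All 5 read TTGAGCAA, and windows of related genes are not independent. Those of Ugt2b15 and Ugt2b37, for example, were identical at 85.3% of aligned columns. The 2 shares therefore do not measure an excess of the letters. Ugt2b and Ugt2b15 had the same match, TTGAGCAA, with its first base at -75 from the annotated start in Ugt2b and at -79 in Ugt2b15. The windows of Ugt2b and Ugt2b15 were identical at 65.2% of aligned columns. The windows of Ugt2b10 and Ugt2b1 had no match to these letters and were identical at 50.3% of aligned columns. The letters do not follow the split of the signals: Ugt2b35, correlated with Ugt2b1 across the rats, has TTGAGCAA too, first base at -88. A match is a description of the letters and does not show that a factor binds there.

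Across the diets, no UGT probe set passed the test. Means were higher in L. brevis livers for all 8 varying probe sets, although the difference of Ugt2b15 turned to -0.0888 under quantile normalization. Means were higher for 46.2% of all varying probe sets. The UGT probe sets had a median difference of 0.50 log2 against -0.02 over all. That median includes the Ugt2b pair, whose size rests on the control 4 values, and the median over the other 6 was 0.25. At an adjusted p under 0.05, 0 of the 8 were called by limma, where the share called among all varying probe sets was 0.0633%. At an unadjusted p under 0.05 there were 2, the UGT1A probe set and Ugt2a1, where 24.5% of all varying probe sets passed. For 0 of the 8 did the diets separate without overlap, compared with 11.3% of all varying probe sets (4.21% with every L. brevis value on top). Markers of other liver cells differed in mean between the diets, with 0 called at the adjusted threshold (limma). All 6 varying endothelial markers had lower means in L. brevis livers (median -0.43, 3 at an unadjusted p under 0.05). Of 5 varying Kupffer cell markers 4 had higher means (median 0.12, 2 at that limit, Adgre1 and C1qb), and of 4 stellate cell markers 2 had higher and 2 lower means (1 at that limit, Pdgfrb). The part of these in the UGT values was not tested.

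The varying UGT1A probe set, 1387759_s_at, read 11.44, 11.99, 12.38 and 12.54 in L. brevis rats 1 to 4. In control rats 1 to 4 it read 10.98, 11.54, 11.42 and 11.52. L. brevis livers 2, 3 and 4 were above every control liver, while L. brevis 1 lay inside the control range. The means were 12.09 ± 0.49 in L. brevis and 11.37 ± 0.26 in control livers (SD, n = 4 each), a difference of +0.72 (SE 0.25, 1.65-fold, adjusted p = 0.162, limma, exact permutation p = 0.0857, two-sided). Without L. brevis 1 it was +0.94 and past the threshold (adjusted p = 0.0278), in a fit that called 18.1% of all varying probe sets (8.57% called higher). With array weights it was also past it (+0.90, adjusted p = 0.0235), where 24.7% of all were called.

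Ugt2b1, a UGT2B enzyme with broad substrate range in rat liver, had the widest diet difference of the probe sets that kept their signal in control 4. It read 7.59, 10.13, 10.87 and 11.12 in L. brevis rats 1 to 4, against 6.25, 8.88, 8.79 and 9.08 in control rats 1 to 4. Rat 1 was far below the others of its group in both diets, L. brevis 1 at -3.11 log2 from the mean of the other L. brevis rats and control 1 at -2.66 from the mean of the other controls. Over all rats the means were 9.93 ± 1.61 in L. brevis and 8.25 ± 1.34 in control livers, a difference of +1.68 (SE 0.94, adjusted p = 0.296, limma, exact permutation p = 0.171). That ran from +1.01 without control 1 to +2.46 without L. brevis 1 (adjusted p = 0.542 and 0.0621).

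The same rats were low for Ugt2b10, Ugt2b35 and the UGT1A probe set. Ugt2b10 read 8.68, 9.48, 10.32 and 11.20 in L. brevis rats 1 to 4, and 8.28, 10.05, 9.94 and 10.29 in control rats 1 to 4. Its diets overlapped throughout, with a difference of +0.28 (SE 0.64, adjusted p = 0.817, limma). Ugt2b35 read 12.15, 12.47, 12.59 and 12.66 in L. brevis rats 1 to 4, and 12.05, 12.27, 12.16 and 12.53 in control rats 1 to 4, a difference of +0.21 (SE 0.14, adjusted p = 0.370).

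Ugt2b15 and Ugt2a1 behaved differently from these. Ugt2b15 spanned 11.32 to 11.78 in L. brevis livers and 11.47 to 11.59 in control livers, so that the control range lay inside that of the L. brevis rats (difference +0.02, SE 0.10, adjusted p = 0.937, limma). Ugt2a1 read 7.17, 7.31, 7.14 and 7.23 in L. brevis rats 1 to 4, and 7.14, 7.04, 7.02 and 6.99 in control rats 1 to 4. Only control 1 reached the L. brevis range, and the difference of +0.16 (SE 0.06) missed the adjusted threshold (adjusted p = 0.172, limma, exact permutation p = 0.0571).

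**Figure D4:**
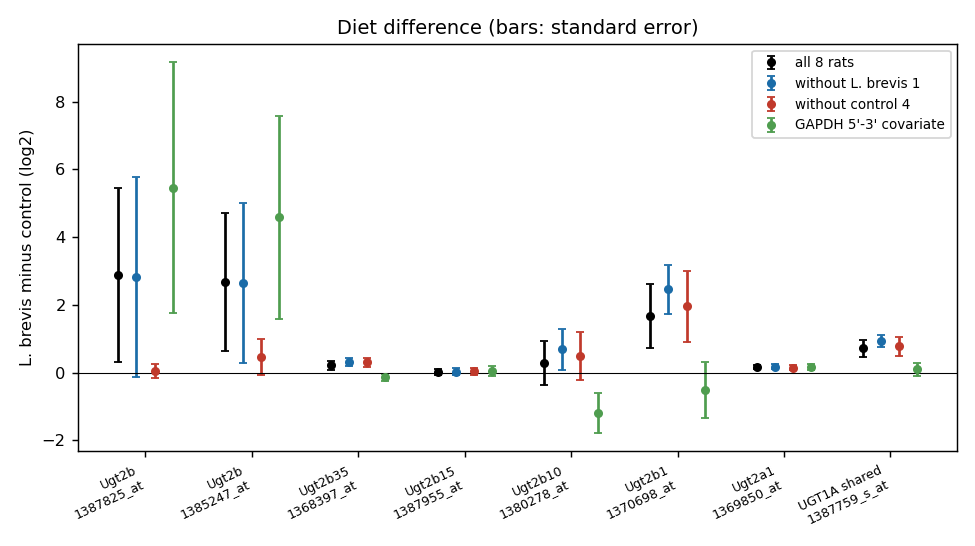
Diet difference, L. brevis minus control (y axis, log2, bars are the standard error), of the 8 varying UGT probe sets with all 8 rats, without L. brevis 1, without control 4, and with the GAPDH signal ratio as a covariate. The Ugt2b differences of 2.88 and 2.68 shrink to 0.05 and 0.46 without control 4, and those of Ugt2b1, Ugt2b10 and Ugt2b35 change sign with the covariate.

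Ugt2b1, Ugt2b10, Ugt2b35 and the UGT1A probe set were correlated across the rats in 5 of their 6 pairs. The sixth pair, Ugt2b10 and UGT1A, missed the threshold (r = 0.76, rho = 0.79, exact permutation p = 0.0297 and 0.0279, adjusted p = 0.0742 and 0.0698), with an r of 0.57 without control 1 and L. brevis 1. All pairs with Ugt2b15 or Ugt2a1 missed it too. Correlations were computed for the 15 pairs of the 6 varying UGT probe sets other than Ugt2b, over all 8 rats. Ugt2b1 and the UGT1A probe set had a Pearson r of 0.95 (exact permutation p = 0.000174, adjusted p = 0.0026) and a Spearman rho of 0.95 (exact permutation p = 0.00114, adjusted p = 0.00856). Without control 1 and L. brevis 4, the rats farthest from the median of Ugt2b1, r was 0.91, and over deviations from the diet means it was 0.96. Ugt2b35 and Ugt2b1 had an r of 0.91 (exact permutation p = 0.000794, adjusted p = 0.00595), a rho of 0.98 (exact permutation p = 0.000397, adjusted p = 0.00595) and an r of 0.83 without the same rats. For Ugt2b1 and Ugt2b10 r and rho were both 0.86 (exact permutation p = 0.00747 and 0.0107, adjusted p = 0.028 and 0.0321), with an r of 0.61 without those rats. Ugt2b15 had an r of -0.01 with Ugt2b1 and -0.13 with the UGT1A probe set (exact permutation p = 0.98 and 0.771, adjusted p = 0.983 and 0.935), and rho of 0.05 and -0.10 (exact permutation p = 0.935 and 0.84, adjusted p = 0.977 for both). Those values rest on the outlying rats: without the 2 farthest, r was 0.57 and 0.71.

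This pattern was shared widely. Of 4875 varying probe sets outside the UGT families, 245 had an r above 0.9 with Ugt2b1 and 428 had one with the UGT1A probe set. Nearest to Ugt2b1, in a comparison chosen after its values were seen, were Rdh10, a retinol dehydrogenase (r = 0.986), and Heca (r = 0.985). Csnk1a1, casein kinase 1 alpha (r = 0.996), and Marchf5, a mitochondrial ubiquitin ligase (r = 0.994), were nearest to the UGT1A probe set.

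It also moved with a measure of RNA quality. GAPDH control probe sets on the array read the 5' and the 3' end of 1 transcript, and their difference falls when the RNA or its copy is shortened. That difference was -2.20, -1.30, -0.94 and -0.68 log2 in L. brevis rats 1 to 4, and -2.89, -1.83, -2.93 and -1.98 in control rats 1 to 4. L. brevis rats 2 to 4 were above every control rat, as they were for the UGT1A probe set. Across the 8 rats the UGT1A signal had an r of 0.94 with it (exact permutation p = 0.000298, adjusted p = 0.00179 over 6 UGT probe sets), a rho of 0.98 (exact permutation p = 0.000397, adjusted p = 0.00238) and an r of 0.99 without L. brevis 4 and control 3. For Ugt2b1 the r was 0.87 (exact permutation p = 0.00568, adjusted p = 0.0114), the rho 0.90 (exact permutation p = 0.00456, adjusted p = 0.0137) and the r without those rats 0.98. Ugt2b35 had an r of 0.89 and a rho of 0.86 (exact permutation p = 0.00362 and 0.0107, adjusted p = 0.0109 and 0.0214), with an r of 0.85 without them. Ugt2b10 missed the threshold (r = 0.67, rho = 0.71, exact permutation p = 0.0659 and 0.0576, adjusted p = 0.0989 and 0.0864), as did Ugt2a1 (r = 0.53, rho = 0.45, exact permutation p = 0.184 and 0.267, adjusted p = 0.221 and 0.321). For Ugt2b15 r was -0.05 and rho -0.07 (exact permutation p = 0.913 and 0.882, adjusted p = 0.913 and 0.882), with an r of 0.47 without those rats. Of all varying probe sets 14.8% had an r above 0.8 with the GAPDH difference and 14.9% one below -0.8.

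With the GAPDH difference as a covariate in the fit, an alternative chosen after the data were seen, the UGT1A diet difference was +0.10 (SE 0.19, adjusted p = 0.931, limma). Ugt2b1 then differed by -0.52 (SE 0.83, adjusted p = 0.912), Ugt2b10 by -1.19 (SE 0.58, adjusted p = 0.680) and Ugt2b35 by -0.13 (SE 0.11, adjusted p = 0.799), each in the opposite direction to the fit without it. Ugt2a1 kept its difference at +0.18 (SE 0.09, adjusted p = 0.688). Because the GAPDH difference itself differed between the diets, diet and RNA quality cannot be told apart in this fit. The GAPDH difference of control 4, -1.98, lay inside the range of the other controls, -2.93 to -1.83. Whether RNA quality had a part in its Ugt2b values was not tested.

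**Figure D5:**
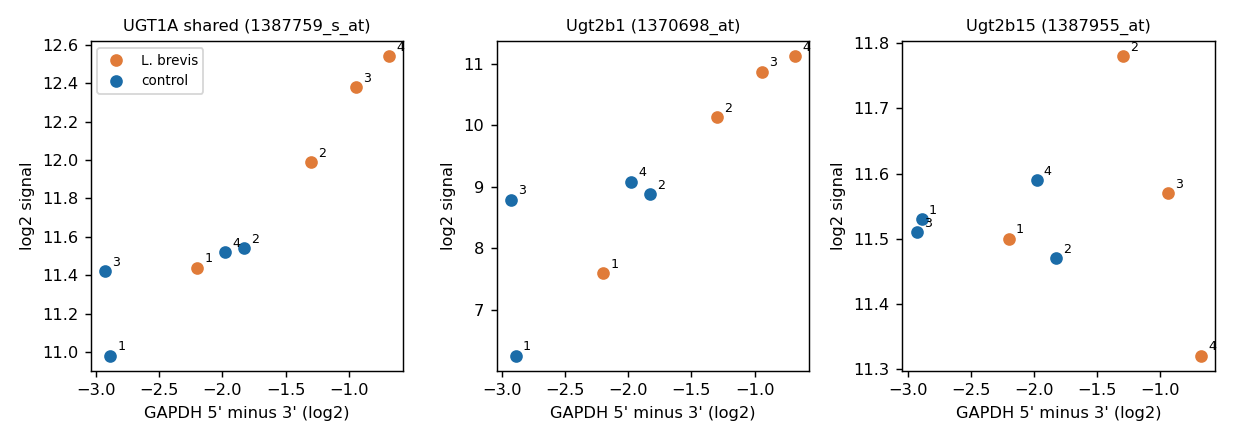
Log2 signal (y axes) of the UGT1A probe set, Ugt2b1 and Ugt2b15 against the GAPDH 5' minus 3' signal of the same array (x axis, log2), with L. brevis rats in orange and control rats in blue, numbered by rat. The UGT1A probe set and Ugt2b1 are higher where the GAPDH difference is nearer 0 (r = 0.94 and 0.87), and Ugt2b15 shows no such slope (r = -0.05).

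Genes that feed, control and follow glucuronidation were read from 6 lists, none of which had a member past the adjusted threshold in either direction (limma). In the supply of UDP-glucuronic acid 9 of 12 measured genes varied, 6 higher and 3 lower, with a median difference of 0.22 log2 against -0.02 over all varying probe sets. In this and the following lists, members at an unadjusted p under 0.05 made up a smaller share than the 24.5% of all varying probe sets. Ugdh, which makes UDP-glucuronic acid, averaged 10.63 ± 0.37 in L. brevis and 10.41 ± 0.10 in control livers (SD, n = 4 each). Slc35a3, a Golgi nucleotide sugar transporter, alone had an unadjusted p under 0.05 (+0.52, SE 0.13, adjusted p = 0.125). Gusb, the glucuronidase that reverses the conjugation, averaged 9.05 in both diets.

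Among regulators of UGT genes 11 of 17 measured genes varied, 7 higher and 4 lower, with a median of 0.19. Rxra, a partner of the nuclear receptors, differed by +0.48 (SE 0.17, adjusted p = 0.159, limma) and Nr1h4, the bile acid receptor FXR, by -0.54 (SE 0.18, adjusted p = 0.151), the 2 members at an unadjusted p under 0.05. The xenobiotic receptor gene Nr1i3 (CAR) averaged 9.24 ± 0.26 in L. brevis and 9.18 ± 0.46 in control livers, while Nr1i2 (PXR) held 8.65 on every array. In control 4, 0 of these 11 regulators had their lowest value, and in control 1 it was 4. As for the cell markers, the share of all varying probe sets lowest in control 4 was not computed. A part of the regulators in the Ugt2b loss was not tested.

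Of the transporters that carry conjugates 10 of 13 measured genes varied, 6 higher and 4 lower, with a median of 0.15. Abcc2 (MRP2), the exporter of glucuronides into bile, averaged 10.16 ± 0.70 in L. brevis and 9.62 ± 0.27 in control livers (difference +0.53, SE 0.34, adjusted p = 0.352, limma). Abcc6 differed by -1.15 (SE 0.31, adjusted p = 0.136), the sole member with an unadjusted p under 0.05. In the list from heme to bilirubin 5 of 10 measured genes varied, 2 higher and 3 lower. None of these reached an unadjusted p under 0.05 (0 of 5, limma), and Hmox1, Blvra and Blvrb, the enzymes that make bilirubin, held 1 value each.

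Partner enzymes of the endoplasmic reticulum had 6 varying members higher and 5 lower of 13 measured (median 0.04), with Cyb5a, cytochrome b5 (+0.66, SE 0.20, adjusted p = 0.136, limma), and Cyp3a18 (+0.82, SE 0.30, adjusted p = 0.168) at an unadjusted p under 0.05. Genes of androgen and steroid metabolism had 6 higher and 4 lower of 10 measured, all varying (median 0.16), and Sult1a1, a phenol sulfotransferase, alone had an unadjusted p under 0.05 (+0.33, SE 0.11, adjusted p = 0.150). In control 4, 2 of these 10 had their lowest value of the 8 rats, both by a very small margin. Sult1b1 read 12.09 there, against 12.10 to 12.81 in the other 7, and Sult2a1 5.62, against 5.64 to 5.71. This count too has no share over all varying probe sets beside it. Akr1c14, the hydroxysteroid dehydrogenase that forms androsterone in rat, read 11.56 in control 4, against 10.76 to 11.35 in the other 7. Hsd17b2 had the widest spread of the 10, from 6.29 in L. brevis 1 to 15.22 in L. brevis 4, and read 11.60 in control 4. Extreme values are thus not limited to Ugt2b.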

How the data were processed

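Liver RNA was labelled with a 3' in vitro transcription kit and hybridised to 1 Affymetrix array per rat, per the labels' protocols. The deposited table holds 1 log2 signal per probe set and array, normalized by the authors with a method not given in the sources used here. The design's p-values measure the spread between rats, which the labels call biological replicates. From 31099 probe sets, 57 Affymetrix controls were left out. The platform annotation gave 1 symbol to 20826 of the rest, several to 436 and none to 9780. L. brevis minus control was fitted with limma 3.58.1 in R 4.3.3 (lmFit, eBayes with intensity trend, two-sided, Benjamini-Hochberg, threshold 0.05) to the 6323 probe sets with a range over 0.01 log2. Probe sets with 1 value carry no difference and distort the variance model. The fit over all 31042 is an alternative, as are other normalizations, variance models, filters, a replicate block and leaving out each rat. The fit was tested on simulated data, with noise drawn independently for each probe set. The pattern that many probe sets share here was not simulated. Members, lists, tests and named genes were chosen with earlier results of these data known. All varying UGT probe sets are named. For likeness, the 10 probe sets with the highest r to the UGT2 probe set of largest range were taken, since the symbol Ugt2b17 is not in the annotation. Each listed gene is read at its brightest varying probe set. Rats of the same number were not treated as pairs: their deviations from the diet means correlated at 0.359, 0.203, 0.078 and 0.381. For numbers 1 and 2 each rat's closest match in the other diet had the same number. For number 3 neither did, and for number 4 only that of the L. brevis rat did.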

Additional observations from a re-analysis of the deposited data

Results flagged for a closer look

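Among the UGT probe sets other than Ugt2b, 1 rat lay far from the others of its group of 4 at 1 probe set, by the ratio of its gap to the group's range (above Dixon's critical value for 4 samples). Control 1 read 6.25 at Ugt2b1, against 8.79 to 9.08 in the other controls (ratio 0.899). Such a limit is passed by chance in about 1 in 20 groups, and 12 groups were examined here. Ugt2b was left out because it was chosen for its value in control 4.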

How the results depend on the processing

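Over all varying probe sets 4 were called. There were 44 calls with all probe sets of the table, 1 with a range above 0.1 log2, 0 with median centring (1524 at an unadjusted p under 0.05), 2 with robust eBayes, 1561 with array weights and 0 with the GAPDH covariate (497 at an unadjusted p under 0.05, limma). Leaving out 1 rat gave 0 to 1146 calls, the highest number without L. brevis 1. With a replicate block 0 were called, 1973 having an unadjusted p under 0.05, and 0 of the 8 UGT probe sets. The block narrowed the standard errors of Ugt2b1 (+1.68, SE 0.19, adjusted p = 0.0662, limma) and UGT1A (+0.72, SE 0.14, adjusted p = 0.0752). The precision of these 2 results therefore depends on whether rats of 1 number are paired. Their differences did not change, and neither passed the threshold with or without the block. UGT calls were 0 in the fit to all rats and 0 to 1 with 1 rat left out. The UGT1A probe set passed without L. brevis 1 (+0.94, adjusted p = 0.0278, limma) and with array weights (+0.90, adjusted p = 0.0235), which gave 1 UGT call. Its adjusted p ran from 0.0278 to 0.332 with 1 rat left out. Signs turned for Ugt2b10 (-0.17 to 0.70 with 1 rat left out) without L. brevis 4 (-0.15), without control 1 (-0.17) and with the GAPDH covariate (-1.19). They turned for Ugt2b15 (-0.0615 to 0.0908 with 1 rat left out) under quantile normalization (-0.0888), without L. brevis 2 (-0.0615) and without control 2 (-0.000434), and with the GAPDH covariate for Ugt2b1 (-0.52) and Ugt2b35 (-0.13). The cause was not tested. Ugt2b differences ran from 0.0463 to 3.87 at 1387825_at and from 0.46 to 3.6 at 1385247_at with 1 rat left out, the lowest without control 4.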

Other observations

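Single-rat losses were also seen outside the UGT families, though none as deep. Abhd3, a phospholipase, read 3.70 in control 2, 4.44 log2 below the next lowest rat. Car3, carbonic anhydrase 3, was lowest in L. brevis 1 at 2 probe sets, by 3.53 and 2.25 log2. Sult2a6, a sulfotransferase, was 2.85 below the next lowest in control 1, the rat with the lowest Ugt2b1. Cyp7a1, the rate-limiting enzyme of bile acid synthesis, read 6.31 in control 3, 2.08 below the next. These probe sets were named after their values were seen.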
